A study of Mus musculus with 12 samples.

Results

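The 6 genes described here act in the metabolism of lactate, pyruvate and fructose bisphosphate in muscle. These are Ldha and Ldhb (lactate dehydrogenase subunits), Slc16a1 and Slc16a3 (monocarboxylate transporters), Pcx (pyruvate carboxylase) and Fbp2 (the muscle fructose bisphosphatase). They were taken by symbol from the authors' deposited tables, which list 28997 genes, and all 6 were found. The transcriptome of the soleus, a slow hind limb muscle of the mouse, was sequenced from 12 animals. Per the labels there were 3 animals each of Cdh5Cre-NOX1CKO on high fat diet, Cdh5cre-WT on high fat diet, Cdh5Cre-NOX1CKO on chow and Cdh5cre-WT on chow, each fed for 8 weeks. The genotype names give every group a Cre driven by Cdh5, a gene of endothelial cells, while RNA of the whole muscle was measured. Age and sex are not given in the sources used here.

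The deposited tables compare groups named by the codes G1 to G4, and the labels do not say which genotype and diet a code stands for. G2 and G3 would trade places depending on whether the design text or the list of samples were followed, so every difference is given by code only. The first table sets G2 against G1, the next sets G3 against the same G1, and the remaining tables set G4 against G2 and against G3. Comparisons with a group in common share its mice. No mouse is shared between the comparison of G3 with G1 and that of G4 with G2. The tables hold 1 value per gene and comparison and none per library, so neither the value of a mouse nor a standard deviation within a group can be given. The log2 fold change and its p-value together give a standard error, called implied here. The total per gene over the libraries and the log2 fold changes together give a mean level per group, called the implied level, in normalised reads per library. A gene is called where the authors' adjusted p was under 0.05.

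The sum over all genes was a mean of 24905255 normalised reads per library, and depth per mouse is not in the tables. All 8 genes checked for the identity of slow and mixed muscle were abundant, with totals over the libraries between 642616 for Tnnt1 and 6621511 for Acta1. Nox1 had a total of 25.2 normalised reads over the 12 libraries, so few that its loss was not detectable and the labels could not be checked on it. The 6 genes were chosen by their fold changes and adjusted p-values in these same comparisons. Those values are therefore given as a description and are not independent evidence about the genes.

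Working muscle turns pyruvate into lactate and takes lactate up again as a fuel. Lactate dehydrogenase is built from A subunits, which are typical of fast glycolytic fibres, and B subunits, which are typical of heart and slow fibres. The transporter encoded by Slc16a1 serves mainly lactate uptake in oxidative fibres, and that encoded by Slc16a3 mainly lactate export from glycolytic fibres. Pyruvate that enters the mitochondrion can be carboxylated by the biotin enzyme pyruvate carboxylase to oxaloacetate, which refills the citric acid cycle. Fructose bisphosphatase reverses the step of phosphofructokinase and lets muscle rebuild glycogen from lactate.

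Of the 6 genes, 2 were called in G3 against G1 (Pcx and Ldhb, both lower in G3), and 3 in G4 against G2 (Pcx and Ldhb lower in G4, Fbp2 higher). Over all genes the authors adjusted, 0.21% were called in G3 against G1 (0.0414% lower) and 1.38% in G4 against G2 (0.351% lower and 1.02% higher). By the authors' adjusted p no member was called in G4 against G3, where 0.0394% of all genes were. None was called in G2 against G1 either, where 0.00345% of all genes were. For Ldhb, Slc16a1 and the other genes without a deposited value there, a Benjamini-Hochberg adjusted p was computed from p-values rebuilt from the other comparisons. At an unadjusted p under 0.05 there were 4 members in G3 against G1, 3 in G4 against G2, 0 in G4 against G3 and 1 in G2 against G1. Of the 15494 genes whose total reached 100, 5.63% had such a p in G3 against G1, 9.06% in G4 against G2, 4.83% in G4 against G3 and 2.35% in G2 against G1. These counts rest on the values that chose the genes, so nothing is read from them. The median log2 of the 6 was -0.27 in G3 against G1, -0.01 in G4 against G2, 0.13 in G4 against G3 and -0.13 in G2 against G1, beside medians that round to 0.00 over those 15494 genes.

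**Figure D1:**
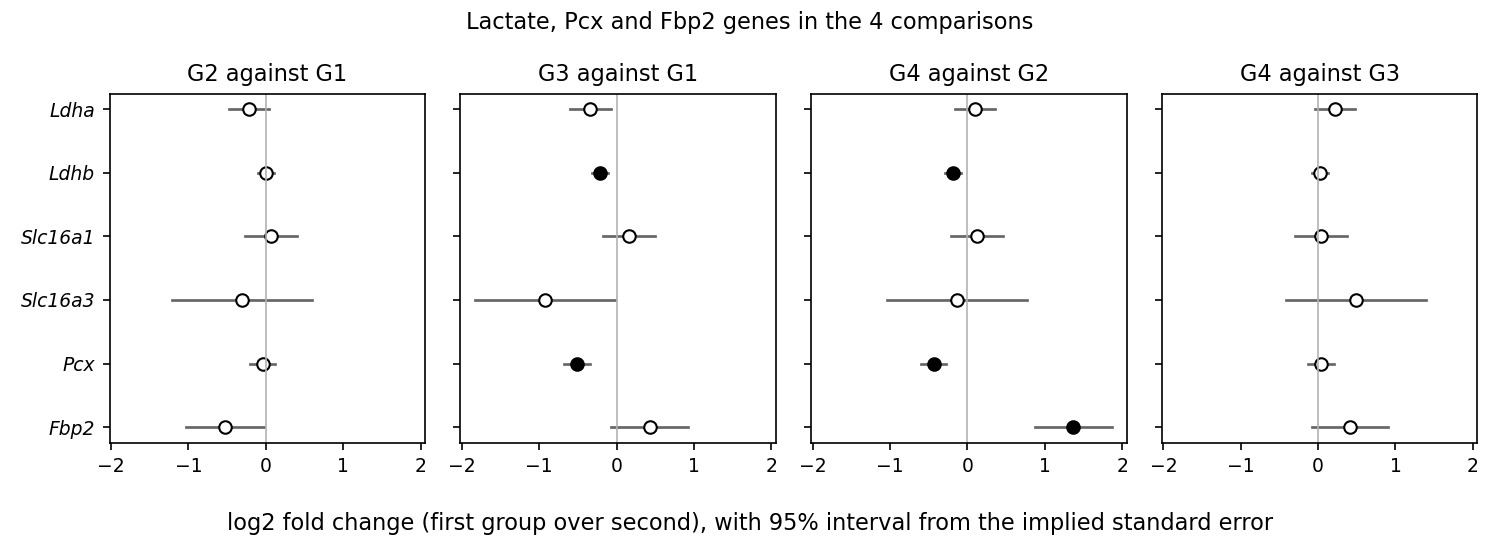
log2 fold change of the 6 genes (points) in each of the 4 comparisons, first-named group over second, with 95% intervals from the implied standard error (lines). Filled points are called, open points are not: Pcx and Ldhb lie left of 0 in G3 against G1 and G4 against G2, Fbp2 lies at 1.37 in G4 against G2, and Slc16a3 has the widest intervals.

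The sequences before the transcription starts of Ldha, Ldhb, Pcx and Fbp2 are shown because these are the 3 called genes and the partner subunit of Ldhb, which was not called. Each line gives the 250 bases before the RefSeq start on the gene's own strand, 5′ to 3′, from build GRCm38.p6, and for Ldha and Pcx the window at the first of their 2 listed starts. Capitals mark ACGTG (a form of the core of the hypoxia response element), TGACGTCA (the cAMP response element) and CCAAT, on either strand. The form of that core that starts with G, GCGTG, was not searched for and is not marked. The windows are chr7:46845554-46845803 on the plus strand for Ldha, chr6:142507958-142508207 on the minus strand for Ldhb, chr19:4510222-4510471 on the plus strand for Pcx and chr13:62858401-62858650 on the minus strand for Fbp2.
Ldha: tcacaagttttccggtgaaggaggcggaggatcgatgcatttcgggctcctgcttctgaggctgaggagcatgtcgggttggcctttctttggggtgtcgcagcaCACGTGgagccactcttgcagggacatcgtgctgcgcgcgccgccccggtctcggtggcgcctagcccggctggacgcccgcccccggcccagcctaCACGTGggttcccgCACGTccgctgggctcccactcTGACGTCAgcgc
Ldhb: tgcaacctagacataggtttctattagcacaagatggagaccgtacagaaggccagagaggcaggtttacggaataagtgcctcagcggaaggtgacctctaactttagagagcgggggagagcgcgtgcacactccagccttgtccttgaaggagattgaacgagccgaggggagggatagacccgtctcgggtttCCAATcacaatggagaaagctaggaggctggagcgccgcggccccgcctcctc
Pcx: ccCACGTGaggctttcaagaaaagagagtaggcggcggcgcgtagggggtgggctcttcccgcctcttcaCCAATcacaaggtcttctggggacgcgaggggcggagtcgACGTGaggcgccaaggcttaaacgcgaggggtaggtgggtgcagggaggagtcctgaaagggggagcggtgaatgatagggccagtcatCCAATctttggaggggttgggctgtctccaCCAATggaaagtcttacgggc
Fbp2: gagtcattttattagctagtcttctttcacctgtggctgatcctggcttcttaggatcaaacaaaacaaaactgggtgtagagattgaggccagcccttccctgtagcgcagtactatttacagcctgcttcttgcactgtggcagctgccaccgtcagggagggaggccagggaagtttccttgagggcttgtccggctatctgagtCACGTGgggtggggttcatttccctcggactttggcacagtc
ACGTG stood in the Ldha window in 3 places, in the Pcx window in 2 and in the Fbp2 window in 1, and not in the Ldhb window. The windows of Slc16a1 and Slc16a3 held it in 1 and 2 places, so 5 of the 6 genes had it at their first start, against 16.6% of all 32851 windows of the same length. That share counts every listed start of a gene and was not matched for base composition, so it is not on the same basis. A stretch of CACGTG reads as ACGTG on both strands and was counted as 1 place. TGACGTCA was found in the Ldha window in 1 place, and in 1.55% of all windows. CCAAT was found in the Pcx window in 3 places, in the Ldhb window in 1, and in 33.8% of all windows. The windows at the second starts of Ldha and Pcx held none of the motifs. A match is a run of letters and was not tested as a site.

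Ldhb (chromosome 6, 142490249 to 142507957, GRCm38, minus strand), the B subunit of lactate dehydrogenase, was the most abundant of the 6 genes in reads. Its implied level was 15355 normalised reads per library in G4, 15114 in G3, 17522 in G2 and 17460 in G1. G4 and G3 lay close together and below G2 and G1, which also lay close together. Ldhb had a log2 fold change of -0.21 for G3 against G1 in the authors' deposited table (adjusted p = 0.0353), with an implied standard error of 0.05, which is a 1.16-fold lower level in G3. It had -0.19 for G4 against G2 in the authors' deposited table (adjusted p = 0.0263), a 1.14-fold lower level in G4. The other comparisons were near 0, with 0.02 for G4 against G3 in the authors' deposited table (95% interval -0.08 to 0.13) and a rebuilt 0.01 for G2 against G1 (-0.10 to 0.11). The call in G3 against G1 did not hold once a trend on transcript length, GC content and total was removed (log2 -0.18, adjusted p = 0.0910), and that in G4 against G2 did not hold when every gene with a p-value was adjusted over (adjusted p = 0.0518). Over all alternatives the adjusted p ran from 0.0135 to 0.0910 for G3 against G1 and from 3.3e-04 to 0.0518 for G4 against G2, and neither difference reached 1.5-fold.

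Reads of Ldhb can be split with a processed pseudogene. Ldhb-ps matched the Ldhb transcript over 1002 aligned bases at 98.0% identity, and it had a total of 84657 normalised reads, 43.1% of that of Ldhb. It had log2 fold changes of -0.20 for G3 against G1 and -0.18 for G4 against G2, per the authors' deposited tables, with adjusted p-values of 0.0880 and 0.0777. With the reads of Ldhb-ps added to those of Ldhb the sum differed by -0.21 on the log2 scale for G3 against G1 and -0.19 for G4 against G2. The tables cannot tell how many of these reads come from the pseudogene, so the level of Ldhb is uncertain.

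Ldha (chromosome 7, 46841475 to 46855627, plus strand), the A subunit, followed a different order of groups. Its implied level was 14633 normalised reads per library in G4, 12560 in G3, 13636 in G2 and 15860 in G1. G1 was highest and G3 lowest, with G4 and G2 between them. Ldha had a log2 fold change of -0.34 for G3 against G1 (adjusted p = 1.0, unadjusted p = 0.0115) and 0.10 for G4 against G2 (adjusted p = 0.923), per the authors' deposited tables. It had 0.22 for G4 against G3 and -0.22 for G2 against G1 in the authors' deposited tables, both with an implied standard error of 0.13. None of these was called, and the 95% intervals ran from -0.60 to -0.08 for G3 against G1 and from -0.16 to 0.36 for G4 against G2. Near-identical copies matter for Ldha as well: 13 annotated genes matched its transcript at 90% identity or more over at least 200 bases and 11 of them had rows in the tables, the largest with 4.98% of the total of Ldha. With their reads added, the sum differed by -0.34 on the log2 scale for G3 against G1 and 0.09 for G4 against G2.

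Per kilobase of the longest coding transcript, Ldha was below Ldhb in every group. Ldha had 8062 normalised reads per kb in G4, 6920 in G3, 7513 in G2 and 8739 in G1, and Ldhb had 11775, 11590, 13437 and 13390 in the same groups. Ldha was therefore 40.6% of the 2 subunits together in G4, 37.4% in G3, 35.9% in G2 and 39.5% in G1. With the copies of each added it was 35.6% in G4, 32.6% in G3, 31.3% in G2 and 34.6% in G1. The order of the 4 groups was the same either way. No error can be given for these shares, because the tables do not hold how the 2 genes varied together between mice.

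**Figure D2:**
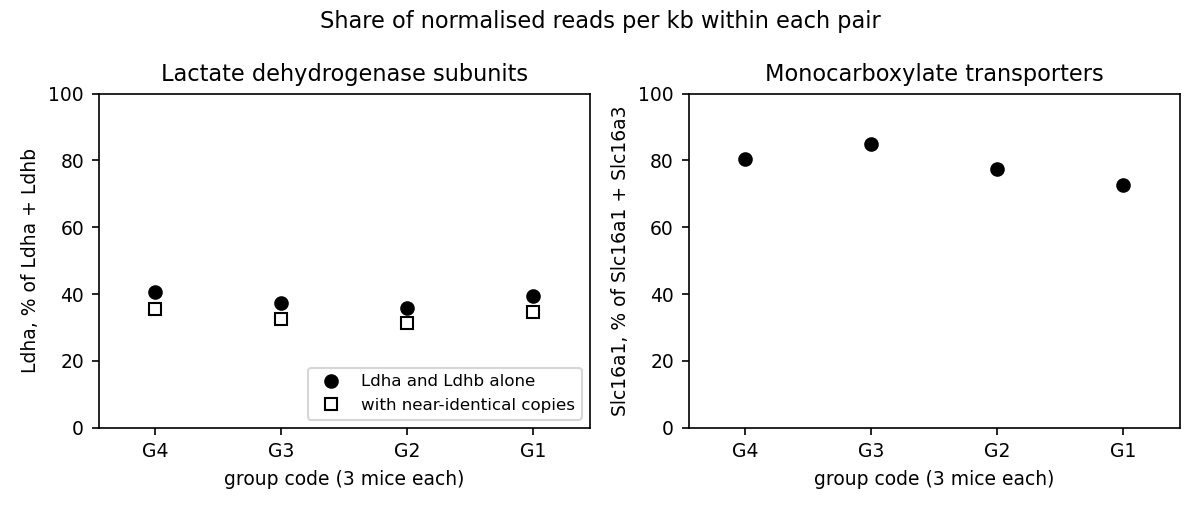
Left, Ldha as a percentage of Ldha plus Ldhb in normalised reads per kb by group code, for the genes alone (filled) and with near-identical copies added (open). Right, Slc16a1 as a percentage of Slc16a1 plus Slc16a3. The Ldha share lies between 35.9% and 40.6% for the genes alone, and the Slc16a1 share between 72.7% and 85.0%, with no error obtainable for either.

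Slc16a1 (chromosome 3, 104638668 to 104658462, plus strand), the lactate uptake transporter, was not called in any comparison. Its implied level was 3209 normalised reads per library in G4, 3124 in G3, 2932 in G2 and 2801 in G1. G4 was highest and G1 lowest, and the implied standard error of each comparison was 0.17. The authors' deposited tables gave it a log2 fold change of 0.16 for G3 against G1 (95% interval -0.18 to 0.49), 0.13 for G4 against G2 (-0.20 to 0.47) and 0.04 for G4 against G3 (-0.30 to 0.37). For G2 against G1 the rebuilt log2 was 0.07 (-0.27 to 0.40). Neighbouring groups in the order of levels did not differ beyond this error where they were compared.

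Slc16a3 (chromosome 11, 120948480 to 120960868, plus strand), the lactate export transporter, had large differences with large errors. Its implied level was 762 normalised reads per library in G4, 542 in G3, 834 in G2 and 1028 in G1. G3 was lowest and G1 highest. Its log2 fold change for G3 against G1 in the authors' deposited table was -0.92, which is a 1.90-fold lower level in G3, yet it was not called (adjusted p = 1.0, unadjusted p = 0.0458). The log2 fold change was -0.13 for G4 against G2, 0.49 for G4 against G3 and -0.30 for G2 against G1 in the authors' deposited tables, with an implied standard error of 0.46 in each. The 95% interval for G3 against G1 ran from -1.83 to -0.02. Per kilobase, Slc16a1 exceeded Slc16a3 4.13-fold in G4, 5.65-fold in G3, 3.45-fold in G2 and 2.67-fold in G1.

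The 6 genes differed widely in implied error. For G3 against G1 the implied standard error of Slc16a3 was above that of 99% of the 1123 genes with a total within 1.2-fold of its own, and 4.38 times their median of 0.11. Ldhb lay at the other end, above none of the 48 genes of like total. Pcx was above 13.1% of 1052 genes, Ldha above 77.8% of 63, Slc16a1 above 90.5% of 359 and Fbp2 above 90.6% of 1175. Averaged over the 4 comparisons and scaled for 3 mice a group, the implied error gives an implied standard deviation, counting error included. It was 0.57 on the log2 scale for Slc16a3, 0.31 for Fbp2, 0.21 for Slc16a1, 0.16 for Ldha, 0.10 for Pcx and 0.06 for Ldhb. It follows from the errors of the authors' fit and is not an observed spread between mice.

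**Figure D3:**
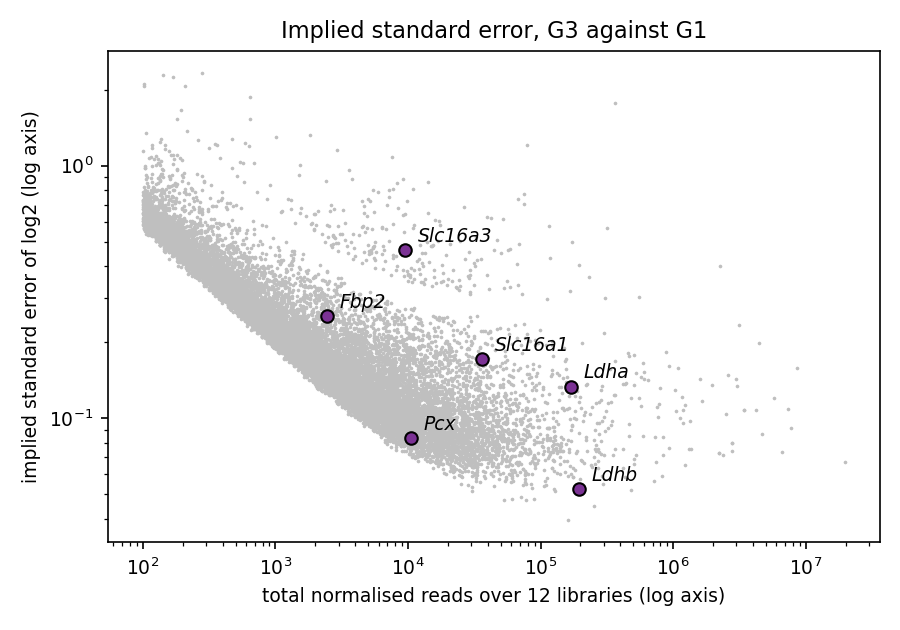
Implied standard error of the log2 fold change for G3 against G1 (log axis) against the total of normalised reads over the 12 libraries (log axis), for genes with a total of at least 100 (grey) and the 6 genes (purple). Slc16a3, at 0.46, lies above nearly all genes of like total, and Ldhb, at 0.05, near the lower edge.

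Pcx (chromosome 19, 4510472 to 4621752, plus strand) was lower in G3 than in G1 and lower in G4 than in G2, by similar amounts. Its implied level was 746 normalised reads per library in G4, 729 in G3, 1009 in G2 and 1038 in G1. The 4 levels formed 2 pairs, with G4 and G3 below G2 and G1. The log2 fold change of Pcx for G3 against G1 in the authors' deposited table was -0.51 (adjusted p = 3.0e-06), a 1.42-fold lower level in G3 with a 95% interval of -0.67 to -0.35 on the log2 scale. For G4 against G2 it was -0.44 in the authors' deposited table (adjusted p = 8.4e-05), a 1.35-fold lower level in G4 with an interval of -0.60 to -0.27. Within the pairs it was 0.03 for G4 against G3 (-0.13 to 0.20) and -0.04 for G2 against G1 (-0.20 to 0.12) in the authors' deposited tables. Neither call passed when a fold change of at least 1.5 was also required. The leucine-rich repeat gene Lrfn4 lies within Pcx on the opposite strand, with a total that was 7.15% of that of Pcx, and had log2 fold changes of -0.01 for G3 against G1 and 0.12 for G4 against G2, per the authors' deposited tables. Whether strand was used in counting is not stated in the labels.

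Fbp2 (chromosome 13, 62836877 to 62858422, minus strand) had the largest difference of the 6 genes, in G4 against G2. Its implied level was 303 normalised reads per library in G4, 227 in G3, 117 in G2 and 169 in G1. G4 was highest and G2 lowest, so that this comparison set the extremes against each other. The log2 fold change of Fbp2 for G4 against G2 was 1.37 in the authors' deposited table (adjusted p = 3.7e-05), a 2.59-fold higher level in G4 with a 95% interval of 1.83-fold to 3.66-fold. The other comparisons were not called: 0.43 for G3 against G1 (unadjusted p = 0.0938), 0.42 for G4 against G3 (p = 0.0986) and -0.53 for G2 against G1 (p = 0.0406) in the authors' deposited tables, each at an adjusted p of 1.0. G2 enters both G4 against G2 and G2 against G1, so 1.37 holds the low level in G2 as well as the high level in G4. Neighbours in the order G4, G3, G1, G2 did not pass the test against each other.

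**Figure D4:**
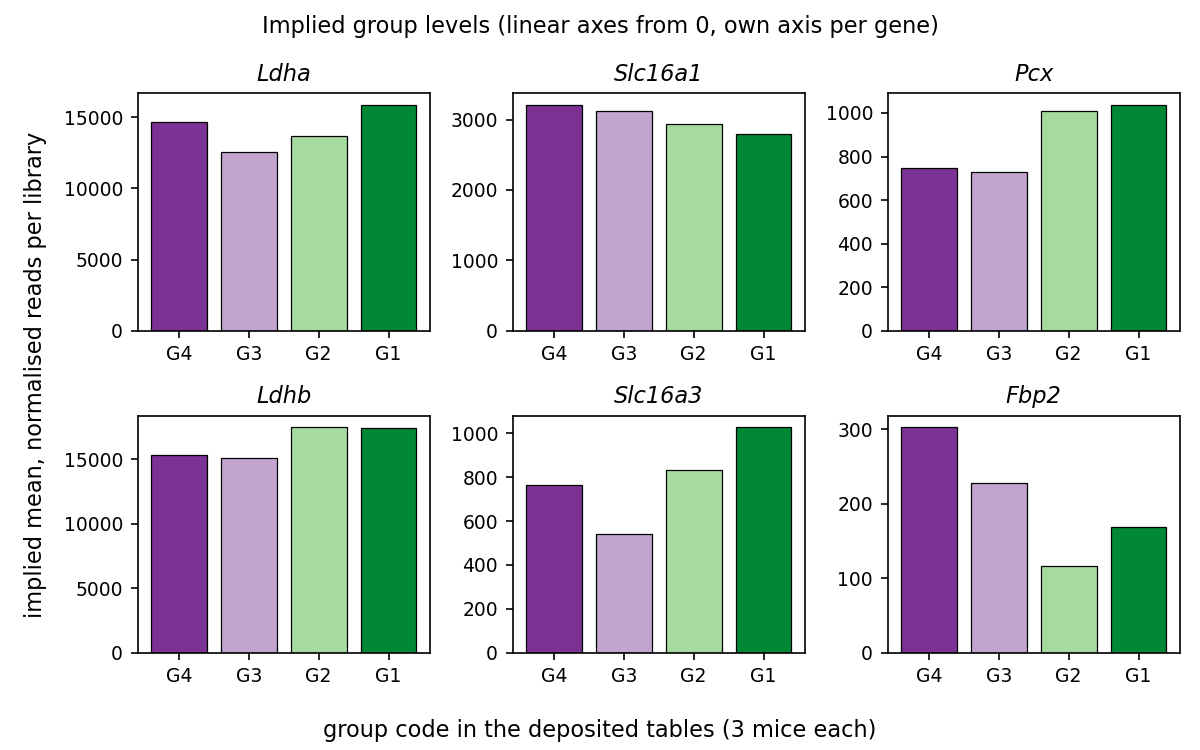
Implied mean level of each gene in normalised reads per library (bars, linear axis from 0, own axis per gene) in G4, G3, G2 and G1, with 3 mice a group and no error obtainable per group. Ldhb and Pcx are lower in G4 and G3 than in G2 and G1, and Fbp2 is at 303 in G4 and 117 in G2.

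Whether the difference of G4 from G2 differs from that of G3 from G1 was examined by subtracting the second log2 fold change from the first, with p-values adjusted over 15494 genes. None of the 6 genes was called by Benjamini-Hochberg adjustment, and 0.00645% of all genes were. Fbp2 had a difference of 0.94 with a standard error of 0.36, at a Benjamini-Hochberg adjusted p of 0.974 over all genes. Ldha had 0.44 with a standard error of 0.19, at an adjusted p of 1.0. These were the 2 members with an unadjusted p under 0.05, as 4.12% of all genes had. Pcx differed by 0.07 (95% interval -0.16 to 0.31) and Ldhb by 0.02 (-0.13 to 0.16). Slc16a3 had 0.79 with an interval of -0.49 to 2.08, and Slc16a1 -0.03 with -0.50 to 0.45. A p that misses the threshold does not show that the differences were alike.

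Genes around the same reactions were taken from 4 lists: other lactate dehydrogenases, monocarboxylate carriers and their chaperones; the fructose phosphate and gluconeogenesis steps; biotin enzymes and other routes that refill the citric acid cycle; and shuttles that carry reducing equivalents into mitochondria. Of 63 genes listed, 58 had rows in the tables and 51 of these a total of at least 100, and the others are not analysed here. By the authors' adjusted p, 1 of the 58 was called in G4 against G2, Pfkl, the liver-type phosphofructokinase, which rose by 0.76 on the log2 scale in the authors' deposited table (adjusted p = 0.0441). That is 1.72% of the genes of the lists, beside 1.38% of all genes. Pfkl was at 356 normalised reads per library in G4, 320 in G3, 209 in G2 and 224 in G1. This call did not hold when every gene with a p-value was adjusted over or when the trend on length, GC content and total was removed. No gene of the lists was called in G3 against G1, G4 against G3 or G2 against G1. An unadjusted p under 0.05 was found for 12 of 51 in G3 against G1 (23.5%, beside 5.63% of all genes) and 6 in G4 against G2 (11.8%, beside 9.06%). It was found for 2 in G4 against G3 (3.92%, beside 4.83%) and 0 in G2 against G1 (beside 2.35%).

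Among the lactate genes, Slc16a10, an aromatic amino acid carrier, had log2 fold changes of -0.40 for both G3 against G1 and G4 against G2, per the authors' deposited tables, with implied standard errors of 0.22. Bsg, the chaperone that brings both lactate transporters to the membrane, had -0.23 for G3 against G1 and -0.02 for G4 against G2, per the authors' deposited tables. Slc16a6 had 0.10 for G3 against G1 and 0.31 for G4 against G2, per the authors' deposited tables. The median of this list was -0.03 in G3 against G1 and 0.01 in G4 against G2. Pfkfb3, which makes an activator of phosphofructokinase, had the largest value among the fructose phosphate genes that had a total of at least 1000, with -1.22 for G3 against G1 and -1.37 for G4 against G2, per the authors' deposited tables. Its implied standard error was 0.66 and neither was called (adjusted p = 1.0 and 0.482). The list's median was -0.20 in G3 against G1 and 0.06 in G4 against G2.

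None of the other biotin enzymes and refilling genes was called in the authors' deposited tables. For G3 against G1 in the authors' deposited table, Acacb, the muscle acetyl-CoA carboxylase, had 0.25 (adjusted p = 0.285), the alanine aminotransferase Gpt2 -0.53, Acaca -0.12 and Mccc1, a subunit of methylcrotonyl-CoA carboxylase, -0.14. For G4 against G2 in the authors' deposited table, Acacb had 0.15, Gpt2 -0.11, Acaca -0.27 and Mccc1 -0.22 (adjusted p = 0.275). The list had 13 of 17 positive values with a median of 0.03 in G3 against G1, and 8 of 17 with a median of -0.00 in G4 against G2. Among the shuttles, the cytosolic and mitochondrial glycerol phosphate dehydrogenases Gpd1 and Gpd2 had -0.80 and -0.53 for G3 against G1 in the authors' deposited table, with implied standard errors of 0.38 and 0.22. For G4 against G2 they had -0.29 and -0.23 in the authors' deposited table. The list's median was -0.03 in both comparisons.

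Fibre type and fat markers are given beside these genes as counts and medians. Of 14 fast fibre genes, 1 was positive in G3 against G1, where their median log2 was -0.35, and 1 in G4 against G2, where it was -0.12. In G4 against G3 the fast fibre list had 13 of 14 positive with 0.08, and in G2 against G1 2 of 14 with -0.14. The summed implied level of this list was 1252328 normalised reads per library in G4, 1200869 in G3, 1362534 in G2 and 1464389 in G1. That is the same order of groups as for Slc16a3, of which no comparison was called. The order is not particular to fast fibre genes. The fructose phosphate and gluconeogenesis list had it too, with 152666 in G4, 135359 in G3, 156843 in G2 and 174233 in G1. Of the slow fibre list, 7 of 13 genes were positive in G3 against G1, 0 of 13 in G4 against G2, 10 of 13 in G4 against G3 and 13 of 13 in G2 against G1, with medians of 0.02, -0.22, 0.08 and 0.32. Their summed level was 783420 in G4, 738025 in G3, 909259 in G2 and 730068 in G1. No gene of either fibre list was called, and no marker of either list was at 0. The unadjusted p was under 0.05 for 7 of 14 fast fibre genes in G3 against G1, 1 in G4 against G2 and 0 elsewhere. For the slow fibre list these were 8 of 13 in G2 against G1, 4 in G4 against G2 and 0 elsewhere. Of all genes, 5.63% had such a p in G3 against G1, 9.06% in G4 against G2 and 2.35% in G2 against G1. In whole muscle, fewer fibres of a type and less RNA per fibre cannot be told apart. The part of fibre type in the values of Ldha, Ldhb, Slc16a3 and Fbp2 was not tested.

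Adipocytes also express Pcx, and whole muscle can hold them. The adipocyte list had positive values in 3 of 10 genes with a median of -0.18 in G3 against G1 and in 8 of 10 with 0.53 in G4 against G2, where Pcx was lower in both. In G4 against G3 it had 6 of 10 with 0.03, and in G2 against G1 0 of 10 with -0.58. Its summed level was 7418 normalised reads per library in G4, 6463 in G3, 5606 in G2 and 7255 in G1. Most of that sum was Fabp4, with a total of 53552 normalised reads over the 12 libraries. Cidea was called in G3 against G1 and Cidea, Lipe and Fabp4 in G4 against G2, all higher. In G3 against G1 that is 1 of the 11 measured genes of the list (9.09%), beside 0.169% of all genes called higher. In G4 against G2 it is 3 of 11 (27.3%), beside 1.02%. Adipoq, which defines the cell type, was at 150 in G4, 129 in G3, 90.7 in G2 and 156 in G1, and none of the measured markers was at 0. Erythroid, macrophage, Schwann and endothelial lists were lower in G2 than in G1 at the median, with -0.70, -0.37, -0.33 and -0.09, beside -0.53 for Fbp2 in that comparison. In G4 against G2 the same lists had medians of 0.40, 0.22, 0.05 and 0.18, with 1 call, the endothelial gene Eng. Eng is 1 of 13 genes of the endothelial list (7.69%), beside 1.02% of all genes called higher. In G4 against G3 the erythroid, macrophage, Schwann and endothelial medians were -0.21, -0.28, -0.06 and 0.06, beside 0.42 for Fbp2. In G3 against G1 these medians were 0.02, -0.09, -0.21 and 0.01, beside 0.43 for Fbp2. The part of these cells in the values of Pcx and Fbp2 was not tested.

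**Figure D5:**
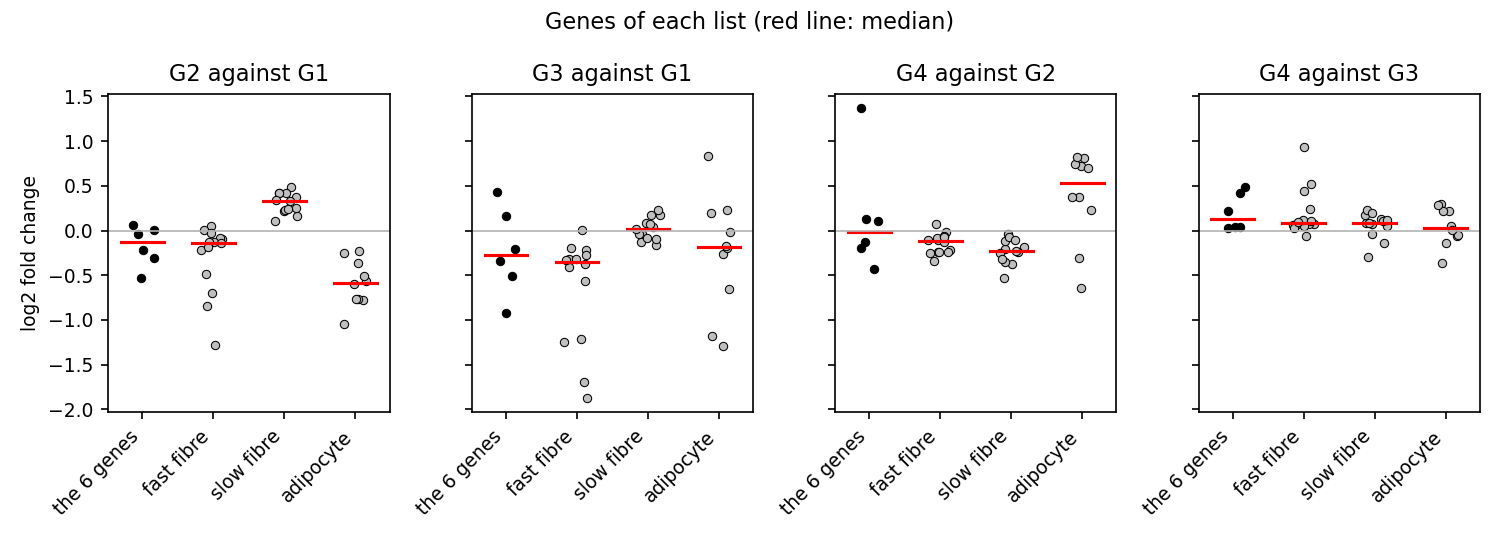
log2 fold change (vertical axis) of the 6 genes (black) and of the fast fibre, slow fibre and adipocyte lists (grey, genes with a total of at least 100) in each comparison, first-named group over second, with the median of each list in red. The fast fibre median is -0.35 in G3 against G1, the slow fibre median 0.32 in G2 against G1 and the adipocyte median 0.53 in G4 against G2.

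Genes nearest to the 3 called members were taken by Euclidean distance over the 4 log2 fold changes among 10667 other genes with a total of at least 1000. These fold changes rest on 4 group means and share mice, so the distance is a description. For Pcx the nearest were H2bc21 at 0.08, Myod1 at 0.09 and Oxct1 at 0.11. Oxct1 was called in both G3 against G1 and G4 against G2, per the authors' deposited tables. It had -0.44 (adjusted p = 0.00128) and -0.35 (adjusted p = 0.0142). For Ldhb the nearest were Sgk1, Ldhb-ps and Lrrc14b, each at 0.02, and Ldhb-ps is its near-identical copy. For Fbp2 the nearest was Rsad2 at 0.06, followed by Tap1 at 0.37 and Scand1 at 0.41. Rsad2 had 1.36 for G4 against G2 without a call (adjusted p = 0.193), and Tap1 had 1.14 (adjusted p = 0.0149), in the authors' deposited table. Scand1 had 1.05 in the same comparison (adjusted p = 0.00443). H2bc21, Myod1, Sgk1, Ldhb-ps and Lrrc14b were not called in any comparison.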

How the data were processed

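Libraries of 12 soleus samples came from a stranded mRNA kit of KAPA, per the labels' protocols. The submitters' processing notes name RSEM 1.2.15, Bowtie2 2.1.0 and edgeR beside mm10 and GRCm38, with no role or order. The authors deposited 4 tables of comparisons. Per the file headers the totals are counts over all libraries, and since they are not whole numbers they are treated as a scaled signal of the authors, read as normalised reads. The p-values and adjusted p-values are the authors' deposited values, and the log2 fold changes are those the authors deposited, first-named group over second. Rebuilt values of G2 against G1 and the difference of differences are exceptions, with p-values computed here and adjusted by Benjamini-Hochberg. Adjusted p-values were missing for 14458 genes of G4 against G2 and 11245 of G4 against G3. The planned count test needs values per library and could not be run.

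The implied standard error is the log2 divided by the normal quantile of its p-value. For G2 against G1 the deposited rows cover 15652 genes, all at a log2 of 0 or below. Values missing there were rebuilt from the other 3 tables, which recovered 7792 listed genes within 1.0e-14, and this concerned Ldhb and Slc16a1. Implied group levels solve the total and the log2 fold changes and are approximate. Difference of differences, adjustment and trend removal (natural splines with 4 degrees of freedom each) were tried on simulated data. The spread of each simulated gene was known there and not estimated from 3 mice a group. Trend removal was tried there on a straight trend on total alone, not on length or GC content. Symbols were matched to GENCODE M21, where 98.0% of 15494 genes with a total of at least 100 matched 1 gene. Copies were found with BLAST 2.17.0, and other steps used Python 3.11.15 with scipy 1.17.1. The members and lists were chosen with earlier results of these data known. Named genes were the members, the list genes called in any comparison, at most the 2 largest of each list with a total of at least 1000, and the 3 nearest to each called member. Genes named for marker levels and copies were chosen after their values were seen. Each library has its own number in the labels, read here as 1 mouse each; if any shared a mouse, the p-values would measure technical spread in part.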

Additional observations from a re-analysis of the deposited data

How the results depend on the processing

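Adjusting over other sets of genes changes only the adjusted p, and recentring on the median gene shifted every log2 by at most 0.01, so neither tests a direction. Requiring a fold change of at least 1.5 left 0 of 2 called members in G3 against G1 and 1 of 3 in G4 against G2. Removing the trend on length, GC content and total left 1 in G3 against G1, where Ldhb was lost, and gave Ldhb a log2 of -0.049 in G4 against G3 and of -0.075 for the difference of differences, both reversed and neither called. The cause was not tested. The 1 called pathway gene in G4 against G2 became 0 of 58 when every gene was adjusted over and 0 when the trend was removed. Adding the reads of near-identical copies, an alternative chosen after seeing the data, moved no log2 of Ldha or Ldhb by more than its implied standard deviation. No paired analysis was possible because no value of a single library was at hand and the labels give no pairing, and leaving out each replicate was not run for the same reason.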

Other observations

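The 4 most abundant copies of Ldha had rows of their own. Gm5452, at 95.9% identity over 997 aligned bases, had, in the authors' deposited tables, a log2 fold change of -0.42 for G3 against G1 and 0.06 for G4 against G2. Ldha-ps2, at 94.7% over 836 bases, had -0.36 and -0.01, Gm9247, at 95.6% over 1000 bases, had -0.30 and -0.04, and Gm11814, at 92.2% over 638 bases, had -0.34 and 0.15 in the same tables. Ldha itself had -0.34 and 0.10. These genes can share reads with Ldha, so their values are not separate observations of it.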
